A study of Mus musculus with 3 samples.

Results

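Members of the tumor necrosis factor (TNF) receptor superfamily and of the CD28 family on tumor-infiltrating NK and T cells were described through 9 genes, taken as the rows of the 3 deposited count matrices that bear the symbols *Tnfrsf1b*, *Tnfrsf4*, *Tnfrsf9*, *Tnfrsf18*, *Tnfsf8*, *Tnfsf9*, *Cd27*, *Cd28* and *Icos*. These are 9 of 32285 genes listed, of which 23035 had at least 1 UMI (unique molecular identifier, a count of 1 captured transcript), and all 9 were found in every matrix. The libraries came from subcutaneous MC38-Ova tumors, a mouse colon carcinoma line that carries ovalbumin, grown in WT C57BL/6 Kaede mice given isotype control antibody, with 250000 cells injected. Kaede is a fluorescent protein that turns from green to red under violet light. Tumors were photoconverted on day 13 and taken on day 15, so Kaede-red (KR+) cells were in the tumor at the time of photoconversion, and Kaede-green (KG+) cells entered in the 48 h after it or were not converted. There were 2 KG+ libraries, labeled as biological replicates, and 1 KR+ library, each from sorted live CD45+ cells, and no untreated tumor or other host strain enters the values given here.

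The TNF receptor superfamily members among the 9 genes signal by clustering on their ligands and recruiting TRAF adaptor proteins, which lead to NF-kB activation. CD28 and ICOS belong to another family, bind B7-type ligands on antigen-presenting cells and act through PI3 kinase. In tumors, OX40 (*Tnfrsf4*), 4-1BB (*Tnfrsf9*) and GITR (*Tnfrsf18*) are known as activation-induced receptors of T cells that are high on regulatory T (Treg) cells, and all have been targeted with agonist antibodies.

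Cells were gated on raw UMIs. NK cells had *Ncr1* and at most 1 UMI of *Cd3e*, and were split into those with *Itga1* (CD49a) and without *Itgam* (CD11b) and those with *Itgam* and without *Itga1*. CD8 T cells had *Cd3e* (at least 2 UMIs), *Cd8a* and *Cd8b1*, and were split by *Havcr2* (TIM-3). CD4 T cells had *Cd3e*, *Cd4* and no *Foxp3*, and Treg cells had *Cd3e* and *Foxp3*. Of 31943 cells that passed the filters, 20756 fell in a gate, 5198 of them NK cells with neither *Itga1* nor *Itgam*, and 745 cells that met gates of 2 classes were left out. In the order KG+ replicate 1, KG+ replicate 2 and KR+, which is kept for all values below, the gates held 315, 491 and 1527 *Itga1*+ NK cells, 426, 306 and 76 *Itgam*+ NK cells, 455, 1078 and 1888 *Havcr2*+ CD8 T cells, 1846, 2060 and 2095 *Havcr2*- CD8 T cells, 422, 440 and 211 CD4 T cells, and 388, 709 and 705 Treg cells. The NK cells with neither integrin, and the few with both, enter the values of all NK cells but not those of the 2 NK gates. Median UMIs per cell were 6438, 8007 and 11079 over the libraries and reached 24478 in KR+ *Itga1*+ NK cells, against 9493 and 12075 in the KG+ cells of that gate.

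The gates were checked against markers. A list of 6 NK markers summed to between 6194 and 18196 CPM (UMIs per 1000000 UMIs of all genes, over the summed cells of a gate in a library) in the 2 NK gates and to between 700 and 2395 in the T cell gates, and 5 T cell markers summed to between 92.1 and 244 in NK cells and between 2805 and 3868 in T cells. *Gzma* was the largest part of the NK sums. *Eomes*, another of the 6, was at 119, 107 and 83.6 CPM in *Itga1*+ and 353, 328 and 142 CPM in *Itgam*+ NK cells. *Eomes* was not part of the gate, so cells without it were not removed. The CD4 T gate held cells with Treg markers: *Ikzf2* or *Ikzf4* was seen in 40.3%, 51.6% and 54.0% of its cells, and the 4 Treg markers summed to 781, 1024 and 1494 CPM there, against 3097 to 3543 in Treg cells. Both comparisons of CD4 T cells are therefore also given without the cells that had either gene. All 6 myeloid markers were seen in every NK sum, at 2327 to 3376 CPM together, most of it *Fcer1g*, which NK cells express. *C1qa* and *Lyz2*, which they are not known for, were at 0.76, 129 and 35.4 CPM and at 0.76, 64.7 and 103 CPM in *Itgam*+ NK cells, and at 2.47, 4.35 and 0.21 CPM and 9.37, 18.04 and 0.36 CPM in *Itga1*+ NK cells.

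The 9 genes lie on chromosomes 1, 4, 6 and 17 of the mouse build GRCm38 (mm10). *Tnfrsf4* (chromosome 4, 156013843 to 156016612) and *Tnfrsf18* (156026164 to 156028895) are neighbors on the plus strand, with 9551 bases between them, and *Sdf4* ends 232 bases before *Tnfrsf4*. The same chromosome holds *Tnfsf8* (63831308 to 63861347, minus strand), *Tnfrsf1b* (145213463 to 145246870, minus strand) and *Tnfrsf9* (150914562 to 150946102, plus strand). *Cd28* (60716800 to 60773359) and *Icos* (60977927 to 61000320) are 204567 bases apart on the plus strand of chromosome 1, with *Ctla4* between them. *Cd27* lies on the minus strand of chromosome 6 (125232622 to 125237010) and *Tnfsf9* on the plus strand of chromosome 17 (57105325 to 57107757). Start-proximal sequence from RefSeq (GRCm38.p6) is shown for *Tnfrsf9* and *Tnfrsf4*, the receptor genes that were higher in KR+ cells of 2 gates, as described below, leaving out bases of annotated exons. The gene intervals above are from GENCODE, whose starts differ from those of RefSeq for both genes. RefSeq lists 2 start sites for *Tnfrsf9*, both inside the GENCODE interval, and the window of the second has no exon-free base. Both are given 5′ to 3′ on the plus strand, and capitals mark the NFAT motif TGGAAA.
*Tnfrsf9*, the 250 bases before the first RefSeq start site, chr4:150919905-150920154: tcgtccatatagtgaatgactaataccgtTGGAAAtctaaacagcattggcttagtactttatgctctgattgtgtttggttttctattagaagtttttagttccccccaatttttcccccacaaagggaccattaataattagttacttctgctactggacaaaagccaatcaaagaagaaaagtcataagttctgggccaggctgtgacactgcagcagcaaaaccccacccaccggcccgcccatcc
*Tnfrsf4*, the 84 bases between the end of *Sdf4* and the RefSeq start site, which lies before the GENCODE start, chr4:156013611-156013694: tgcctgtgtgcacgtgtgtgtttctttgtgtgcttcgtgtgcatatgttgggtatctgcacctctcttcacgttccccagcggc
Of 4 motifs searched on both strands, the *Tnfrsf9* window held the NFAT letters once and the *Tnfrsf4* stretch held none. Over 32851 promoter windows of 250 bases, the shares with each motif were 18.6% for NFAT (TGGAAA), 6.75% for AP-1 (TGANTCA), 4.98% for NF-kB (GGGNNTTCC) and 3.17% for forkhead (GTAAACA). The match is a description of the letters and not evidence of a bound site.

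The levels below are in CPM, and the mean ± SD over the 3 libraries mixes both colors. *Tnfrsf4* (OX40), which sustains the survival of activated T cells, spanned the widest range. It stood at 2302, 1993 and 2282 in Treg cells and at 644, 679.9 and 1209 in CD4 T cells, which did not overlap. *Havcr2*+ CD8 T cells had 305, 222 and 282, and *Havcr2*- CD8 T cells 131, 146 and 251. The CD8 T gates overlapped each other and lay below CD4 T cells and above NK cells. *Itga1*+ NK cells had 42.9, 16.2 and 6.57 and *Itgam*+ NK cells 6.49, 29.4 and 7.69. In KG+ replicate 1, 1 cell carried 156 of the 174 UMIs of *Itga1*+ NK cells, and without it the level was 4.44. After cells were thinned to 2000 UMIs, a UMI of *Tnfrsf4* was expected in 2.06% of *Itga1*+ and 3.03% of *Itgam*+ NK cells. It was expected in 2.89% of B cells (0% to 5.77% over the libraries) and 0.99% of the few myeloid cells. The B cell shares here and below are means over libraries of 180, 89 and 4 cells. The NK means lie within the range of B cells, so the NK share is read as background. The ratio of the highest to the lowest gate mean was 151, with the lowest, that of *Itgam*+ NK cells, at this background.

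*Tnfrsf9* (4-1BB) is induced on activated T and NK cells. Treg cells again had the highest level, 1200.4, 1089 and 1444, with *Havcr2*+ CD8 T cells next at 740.0, 637 and 820.2. In contrast to *Tnfrsf4*, it was abundant in NK cells, with 527, 506 and 662 in the *Itga1*+ gate and 367, 330.5 and 403 in the *Itgam*+ gate. *Havcr2*- CD8 T cells had 296, 347 and 533 and CD4 T cells 346, 393 and 758. The ranges of Treg cells and *Havcr2*+ CD8 T cells did not overlap, whereas each lower gate overlapped the next in order. Thinned shares were 81.9% of Treg cells, 67.8% of *Havcr2*+ CD8 T cells, 54.6% of *Itga1*+ and 40.1% of *Itgam*+ NK cells, against 4.85% of B cells.

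*Tnfrsf18* (GITR), a receptor that is constitutive on Treg cells, followed *Tnfrsf4* in the order of the T cell gates. It stood at 1189, 1086 and 1448 in Treg cells, 611, 568 and 947 in CD4 T cells, 446, 369 and 484 in *Havcr2*+ and 318, 315 and 443 in *Havcr2*- CD8 T cells. Treg and CD4 T cells did not overlap, CD4 T and *Havcr2*+ CD8 T cells did not overlap, and the CD8 T gates did. In NK cells it was detectable at 238, 219 and 200.4 (*Itga1*+) and 241, 208 and 208 (*Itgam*+), with a thinned share of 34.7% of *Itga1*+ cells against 5.34% of B cells.

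*Tnfrsf1b* (TNFR2, a TNF receptor found mainly on immune cells) varied least, with a ratio of 2.33 between the highest and the lowest gate mean. Treg cells had 187, 165 and 219, CD4 T cells 128, 152 and 165, *Itgam*+ NK cells 169, 149 and 102 and *Itga1*+ NK cells 93.7, 88.6 and 62.9. *Havcr2*+ CD8 T cells had 129.7, 119 and 112 and *Havcr2*- cells 124, 119 and 110.1. The lowest library of Treg cells (165.49) was barely above the highest of CD4 T cells (165.42). *Itga1*+ NK cells lay below both CD8 T gates with no overlap, while CD4 T cells overlapped *Itgam*+ NK cells and the CD8 T gates overlapped each other.

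*Cd27*, the receptor for CD70 and a marker of naive, memory-type and less mature cells, was 294, 306 and 343 in Treg cells and 161, 202 and 201 in CD4 T cells. *Havcr2*- CD8 T cells had 193, 187 and 168 and *Havcr2*+ cells 157, 162 and 137. The CD8 T gates did not overlap, with *Havcr2*- cells higher. NK cells had 121, 140.3 and 125 (*Itgam*+) and 114, 99.3 and 57.6 (*Itga1*+). B cells also carry the gene, with thinned shares of 5.97% to 35.9% over the libraries, the highest from only 4 KR+ cells (mean 16.3%).

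The 2 ligands differed. *Tnfsf8* (CD30 ligand) was concentrated in CD4 T cells, at 205, 158 and 162, and the next gate, *Havcr2*- CD8 T cells, had 22.8, 15.9 and 14.6. It was lowest in *Havcr2*+ CD8 T cells (2.69, 3.56 and 3.02) and in Treg cells (4.47, 6.40 and 4.78). *Itga1*+ NK cells had 15.3, 18.8 and 18.5 and *Itgam*+ NK cells 4.20, 12.6 and 10.8. A UMI was seen in 22.4% of CD4 T cells on average without thinning and expected in 13.6% after it, against 0.40% of B cells. In KG+ replicate 2, 1 cell held 108 of the 619 *Tnfsf8* UMIs of CD4 T cells, and in KR+ 1 cell held 52 of 265. *Tnfsf9* (4-1BB ligand) was low in every lymphocyte gate, between 5.67 in *Itga1*+ NK cells of KG+ replicate 1 and 25.5 in KR+ Treg cells. Treg cells (22.4, 23.4 and 25.5) did not overlap CD4 T cells (20.2, 17.8 and 14.7). The few myeloid cells of the sort, which excluded CD11b+ cells without NK1.1, had 63.1, 165 and 288 from 10, 98 and 141 UMIs.

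*Cd28*, the costimulatory receptor of T cells, was highest in CD4 T cells (353, 321 and 328) and Treg cells (251, 275 and 331), which overlapped. *Havcr2*- CD8 T cells had 181, 173 and 151 and *Havcr2*+ cells 144, 133 and 129.6. NK gates had between 44.3 and 58.0, with thinned shares of 10.8% of *Itga1*+ NK cells and 1.07% of B cells. *Icos*, the inducible costimulator, was 984, 983 and 1495 in Treg cells and 762, 654 and 1007 in CD4 T cells, which overlapped. It was 287, 282 and 304 in *Havcr2*+ and 216, 218 and 199.7 in *Havcr2*- CD8 T cells, and between 55.4 and 83.1 in NK cells. *Cd28* and *Icos* therefore had opposite orders in the CD8 T gates.

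**Figure D1:**
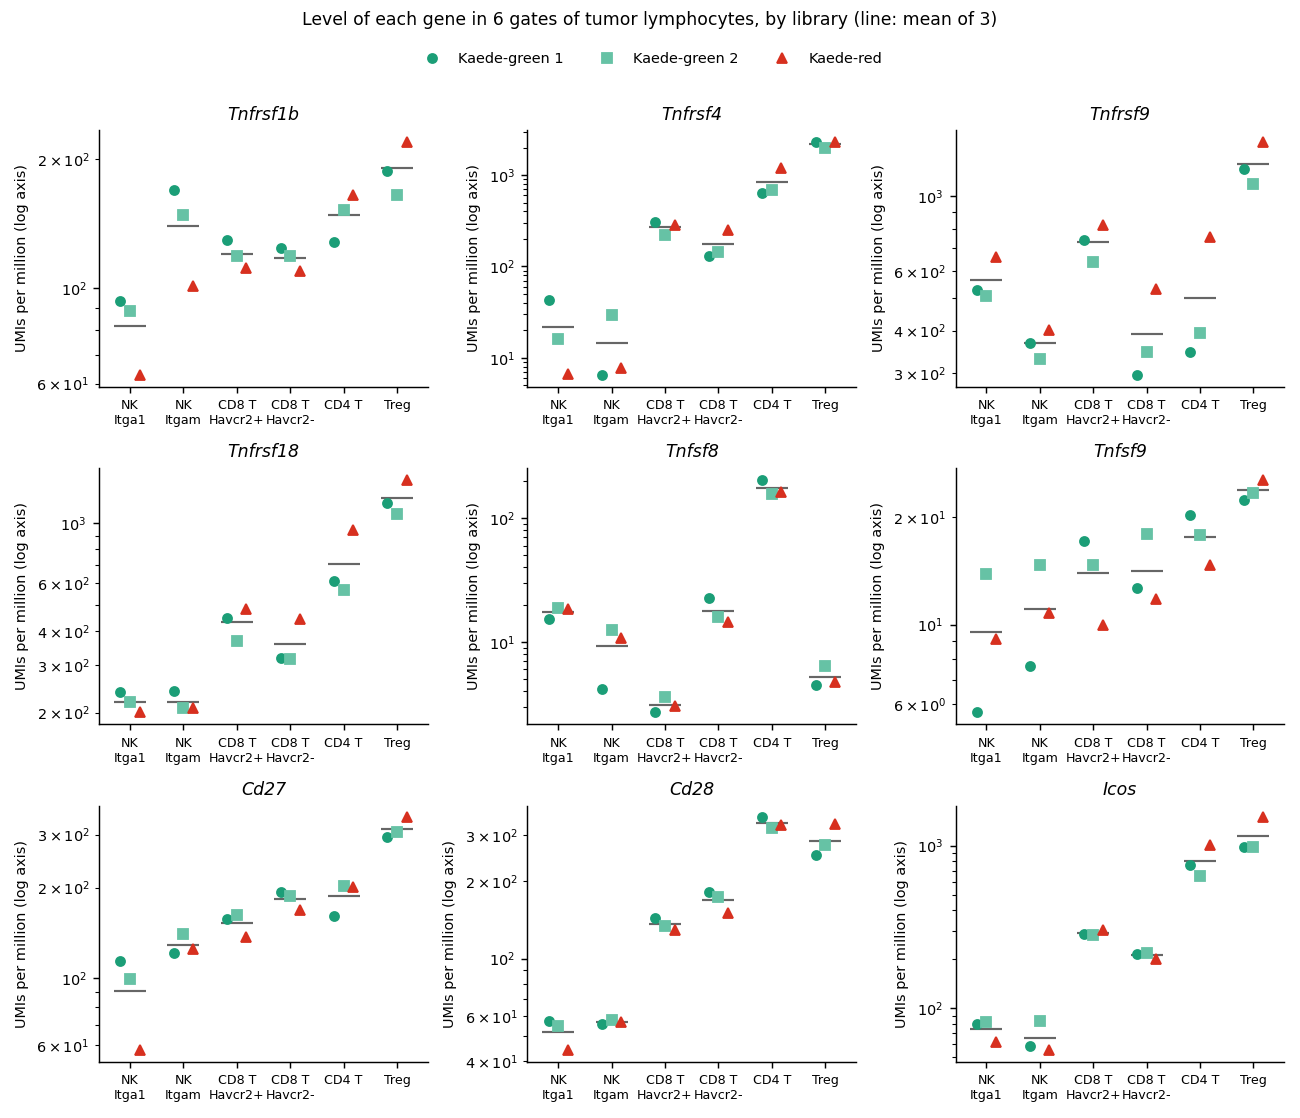
Levels of the 9 genes in CPM (log axis) in the 6 gates, with 1 point per library in the color of its Kaede fraction. Treg cells held the highest mean for 7 genes, and CD4 T cells for *Tnfsf8* and *Cd28*.

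Gates were compared with edgeR's quasi-likelihood test on summed UMIs, with the library as a block and Benjamini-Hochberg adjustment over all genes tested. The first comparison asked how tissue-resident-like *Itga1*+ NK cells differed from *Itgam*+ NK cells. *Tnfrsf9* and *Tnfsf8* were higher and *Tnfrsf1b* and *Cd27* lower in *Itga1*+ cells, and the other 5 genes did not pass the test. Over 9499 genes tested, 18.5% were called higher and 17.3% lower, and 2 of 9 genes in each direction are near these shares. *Tnfrsf9* was 1.61-fold higher (log2 0.69 ± 0.08 SE, adjusted p = 4.23e-05) and *Tnfsf8* 2.10-fold higher (1.07 ± 0.27, adjusted p = 0.00742). The *Tnfsf8* level of *Itgam*+ cells rests on 11, 30 and 7 UMIs. In KG+ replicate 2, 1 cell held 17 of the 30, and without it the level fell from 12.6 to 5.46. *Tnfrsf1b* was 1.62-fold lower (-0.70 ± 0.09, adjusted p = 0.000145) and *Cd27* 1.35-fold lower (-0.43 ± 0.15, adjusted p = 0.0395). For all of these genes the libraries of the 2 gates did not overlap. The part of the *C1qa* and *Lyz2* transcripts of *Itgam*+ cells in these values was not tested. *Tnfrsf4* differed by 0.63 ± 0.50 (adjusted p = 0.360), a value that was called without KG+ replicate 2 (2.30, adjusted p = 0.0187) and was -0.64 without KG+ replicate 1, the library of the *Tnfrsf4*-rich cell above. *Tnfsf9* differed by -0.13 ± 0.24 (adjusted p = 0.717). *Tnfrsf18* differed by 0.08 ± 0.09 (adjusted p = 0.506), *Cd28* by -0.02 ± 0.11 (adjusted p = 0.985) and *Icos* by 0.27 ± 0.12 (adjusted p = 0.0885). *Itga1*+ cells were deeper in all libraries, and among cells of 5000 to 15000 UMIs *Tnfrsf9* (0.22, adjusted p = 0.0573), *Tnfsf8* (0.54, adjusted p = 0.416) and *Cd27* (-0.07, adjusted p = 0.753) were not called, while *Icos* was (0.64, adjusted p = 0.000390). *Cd27* was also not called without KG+ replicate 2 (adjusted p = 0.192) or without KR+ (adjusted p = 0.0817), nor *Tnfsf8* without KG+ replicate 1 (adjusted p = 0.0703). The *Cd27* call was lost in 7 of 13 alternatives, DESeq2 (adjusted p = 0.0854) and stricter gates (0.0707) among them. *Icos* was called higher in 5 of 13. Besides the window, these were no low-count filter (adjusted p = 0.0322), KR+ left out (0.0328), stricter gates (0.0245) and the top 5% of UMIs left out (0.0257). *Tnfrsf4* was also called with no low-count filter (0.68, adjusted p = 0.00665).

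Of 75 other genes of the pathways, 56 were tested between the NK gates, with 9 higher and 25 lower in *Itga1*+ cells. Over all genes 18.5% were higher and 17.3% lower, so the count of higher genes is not above its share. The median of the 56 genes was -0.34, against -0.02 over all genes. None of 22 TRAF and NF-kB genes was higher and 13 were lower, among them *Birc3* (-1.09 ± 0.13), which encodes a ubiquitin ligase bound to TRAF2. Of 10 other ligands tested 5 were higher and 3 lower. The higher ligands were led by *Tnfsf11* (RANK ligand, 4.49 ± 0.34), *Lta* (lymphotoxin alpha, 2.37 ± 0.42) and *Tnfsf4* (OX40 ligand, 2.18 ± 0.24). In *Itgam*+ cells these were near the floor, so the size of the changes is uncertain. *Tnfsf11* was at 1.53, 0.42 and 1.54 CPM there, *Lta* had 6, 2 and 2 UMIs and *Tnfsf4* 11, 8 and 10 UMIs. The death receptor *Fas* was lower (-1.39 ± 0.24), as was *Tnfsf13* (APRIL, -1.30 ± 0.26).

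The second comparison set *Havcr2*+ against *Havcr2*- CD8 T cells, TIM-3 being a marker of highly stimulated and exhausted cells. *Tnfrsf9*, *Tnfrsf4*, *Icos* and *Tnfrsf18* were higher and *Tnfsf8*, *Cd28* and *Cd27* lower in *Havcr2*+ cells. These are 7 of 9 genes, where 13.8% of 12149 genes were called higher and 14.1% lower. *Tnfsf8* differed most, at 5.33-fold lower (-2.42 ± 0.15, adjusted p = 2.94e-05), followed by *Tnfrsf9* at 1.85-fold higher (0.89 ± 0.10, adjusted p = 0.000501). The libraries of the gates did not overlap for either gene. *Tnfrsf4* was 1.53-fold higher (0.61 ± 0.15, adjusted p = 0.0153), *Icos* 1.34-fold higher (0.42 ± 0.07, adjusted p = 0.00286) and *Tnfrsf18* 1.18-fold higher (0.23 ± 0.07, adjusted p = 0.0312), each in 3 of 3 libraries. *Cd28* was 1.28-fold lower (-0.35 ± 0.06, adjusted p = 0.00427) and *Cd27* 1.24-fold lower (-0.32 ± 0.06, adjusted p = 0.00383). *Tnfrsf1b* (-0.02 ± 0.06, adjusted p = 0.821) and *Tnfsf9* (-0.13 ± 0.13, adjusted p = 0.501) did not pass. *Tnfrsf18* was not called without either KG+ replicate (adjusted p = 0.0633 and 0.125), and *Cd27* and *Cd28* were not called without KG+ replicate 2 (0.0524 and 0.0807) or among cells of 5000 to 15000 UMIs (0.445 and 0.102). *Tnfrsf4* was not called by DESeq2 (adjusted p = 0.0983), and without the library block 1 of the 7 calls was kept.

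In the same comparison 69 of the 75 other genes were tested, with 7 higher and 22 lower. Over all genes 13.8% were higher and 14.1% lower, so the count of higher genes is not above its share. The higher genes were led by *Tnfrsf8* (CD30, 1.37 ± 0.32), *Cd80* (1.21 ± 0.12) and *Ctla4* (0.69 ± 0.07). The lower genes were led by the receptors *Tnfrsf26* (-2.23), *Tnfrsf22* (-1.96) and *Tnfrsf25* (DR3, -1.89). *Tnfrsf22* (means of 0.33 and 1.44 CPM) and *Tnfrsf25* (0.84 and 3.02) were low in both gates. Of 15 other receptors tested 7 were lower and 1 higher. CD30 and its ligand thus moved in opposite directions between the CD8 T gates, although *Tnfrsf8* was low in both (means of 1.41 and 0.52).

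The third comparison set Treg cells against *Foxp3*- CD4 T cells. *Tnfrsf4*, *Tnfrsf9*, *Tnfrsf18*, *Cd27*, *Icos* and *Tnfrsf1b* were higher in Treg cells and *Tnfsf8* lower, against 14.1% higher and 14.4% lower of 10205 genes. *Tnfsf8* was 33.0-fold lower (-5.04 ± 0.17, adjusted p = 1.74e-08). *Tnfrsf4* was 2.61-fold higher (1.38 ± 0.14, adjusted p = 2.96e-05), *Tnfrsf9* 2.54-fold (1.35 ± 0.13, adjusted p = 2.92e-05) and *Tnfrsf18* 1.72-fold (0.79 ± 0.09, adjusted p = 0.000106). *Cd27* was 1.62-fold higher (0.69 ± 0.10, adjusted p = 0.000306), *Icos* 1.37-fold (0.46 ± 0.09, adjusted p = 0.00284) and *Tnfrsf1b* 1.23-fold (0.30 ± 0.10, adjusted p = 0.0491). Each was higher in 3 of 3 libraries. *Tnfsf9* (0.36 ± 0.17, adjusted p = 0.140) and *Cd28* (-0.29 ± 0.11, adjusted p = 0.0798) did not pass. The call of *Tnfrsf1b* was lost in 8 of 14 alternatives, among them without any 1 library (adjusted p = 0.0771 to 0.224). That of *Icos* was lost without KG+ replicate 2 (0.0520). *Cd28* was called lower without KR+ (-0.40, adjusted p = 0.0143), with stricter gates (-0.43, adjusted p = 0.0174) and against CD4 T cells without *Ikzf2* or *Ikzf4* (-0.45, adjusted p = 0.0232). Against the latter cells the differences of *Tnfrsf4* (2.11, adjusted p = 2.08e-06), *Tnfrsf9* (2.40, adjusted p = 3.96e-06), *Tnfrsf18* (1.28, adjusted p = 1.46e-05) and *Cd27* (1.29, adjusted p = 0.000655) were larger.

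Against CD4 T cells, Treg cells had 9 of 62 tested other genes higher and 21 lower. Over all genes 14.1% were higher and 14.4% lower, so the count of higher genes is near its share. The higher genes were led by *Tnfrsf8* (2.63 ± 0.26), *Cd80* (1.74 ± 0.21) and *Ctla4* (1.41 ± 0.11), the last of which also served as a Treg marker. *Cd40lg*, the helper ligand for CD40, was lower by far (-4.04 ± 0.15), as were *Tnfsf11* (-3.40 ± 0.28) and *Tnfrsf26* (-2.41 ± 0.29). Of 10 other ligands tested 6 were lower and 0 higher. Of 11 CD28 and ICOS signaling genes 8 were lower and 1 was higher. The receptor *Tnfrsf8* and the ligand *Tnfsf8* lay on opposite sides here too, with *Tnfrsf8* at 16.9, 13.9 and 18.4 in Treg cells.

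All NK cells, with or without *Itga1* and *Itgam*, were then set against all CD8 T cells. Here 0 members were higher, where 13.5% of 12978 genes were, and 5 were lower, where 15.8% were. *Tnfrsf4* was 18.7, 21.1 and 9.01 in NK cells and 178, 177 and 269 in CD8 T cells, lower in NK cells (-3.70 ± 0.36, adjusted p = 0.00166). No fold is drawn from it, since the share of NK cells with *Tnfrsf4* is read as background, and in KG+ replicate 1 a single cell held 156 of the 374 NK UMIs, without which the level was 10.9. *Icos* was 82.7, 82.4 and 62.7 in NK cells and 236, 245 and 259 in CD8 T cells, 3.20-fold lower (-1.68 ± 0.10, adjusted p = 0.000424). *Cd28* was 2.66-fold lower (-1.41 ± 0.07, adjusted p = 0.000294), *Tnfrsf18* 1.60-fold lower (-0.67 ± 0.11, adjusted p = 0.00990) and *Cd27* 1.53-fold lower (-0.62 ± 0.11, adjusted p = 0.0110). *Tnfrsf9* was at 501, 466 and 639.7 in NK cells and 417, 467 and 695 in CD8 T cells, which overlapped (0.08 ± 0.09, adjusted p = 0.540). *Tnfrsf1b* (-0.22 ± 0.12), *Tnfsf8* (0.48 ± 0.29) and *Tnfsf9* (-0.36 ± 0.16) did not pass (adjusted p = 0.234, 0.273 and 0.154). Without the library block *Cd27* was not called (-0.59, adjusted p = 0.116). *Tnfsf8* was called higher in NK cells without KG+ replicate 1 (0.86, adjusted p = 0.0260) and *Tnfsf9* lower without KR+ (-0.57, adjusted p = 0.00288). Of 70 other genes tested 18 were higher in NK cells, led by *Tnfsf12* (TWEAK, 3.65), *Tnfsf13* (3.53) and *Ltbr* (2.40), and 22 were lower, led by *Pdcd1* (PD-1, -4.95), *Tnfsf13b* (BAFF, -4.00) and *Cd40lg* (-3.50). *Ltbr* (means of 0.86 CPM in NK and 0.18 in CD8 T cells) and *Cd40lg* (0.18 and 1.91) were low in both.

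CD4 T cells were set against the same CD8 T sums, so these values share CD8 T cells with the NK comparison and CD4 T cells with the Treg comparison. *Tnfsf8*, *Tnfrsf4*, *Icos*, *Cd28* and *Tnfrsf18* were higher in CD4 T cells and *Tnfrsf9* lower, against 14.4% higher and 15.3% lower of 11759 genes. *Tnfsf8* was 13.9-fold higher (3.80 ± 0.13, adjusted p = 7.67e-07), *Tnfrsf4* 3.68-fold (1.88 ± 0.07, adjusted p = 1.20e-06) and *Icos* 2.99-fold (1.58 ± 0.09, adjusted p = 1.54e-05). *Cd28* was 1.99-fold higher (0.99 ± 0.07, adjusted p = 4.55e-05) and *Tnfrsf18* 1.68-fold (0.74 ± 0.07, adjusted p = 0.000125), and the libraries of CD4 and CD8 T cells did not overlap for any of the 5. *Tnfrsf9* was 1.18-fold lower (-0.24 ± 0.08, adjusted p = 0.0459) in 2 of 3 libraries. This call was lost in 9 of 14 alternatives. Among these were leaving out KG+ replicate 1 (adjusted p = 0.302) or KG+ replicate 2 (0.257), DESeq2 (0.105), stricter gates (0.0613) and cells of 5000 to 15000 UMIs (0.548). *Cd27* differed by 0.03 ± 0.10 (adjusted p = 0.882), *Tnfrsf1b* by 0.21 ± 0.10 (0.155) and *Tnfsf9* by 0.24 ± 0.15 (0.272). Among CD4 T cells without *Ikzf2* or *Ikzf4*, *Tnfrsf9* stood at 183, 166 and 365, against 417, 467 and 695 in CD8 T cells, and was lower in 3 of 3 libraries (-1.28, adjusted p = 6.05e-07). *Cd27* of these cells stood at 132, 152 and 78.6 and was lower than in CD8 T cells (-0.56, adjusted p = 0.00479). With these cells the differences of *Tnfrsf4* (1.17, adjusted p = 2.62e-07), *Tnfrsf18* (0.27, adjusted p = 0.0192) and *Icos* (1.43, adjusted p = 4.61e-07) were smaller than with the whole gate. Those of *Tnfsf8* (4.12, adjusted p = 9.68e-09) and *Cd28* (1.17, adjusted p = 4.53e-07) were larger. Of 68 other genes tested 28 were higher and 6 lower, including 11 higher and 1 lower of 22 TRAF and NF-kB genes. *Cd40lg* (5.15), *Tnfrsf25* (3.54) and *Tnfrsf13b* (TACI, 2.36) led the higher genes, and *Tnfsf13b* (-1.41), *Pdcd1* (-1.40) and *Cd80* (-1.06) the lower genes.

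**Figure D2:**
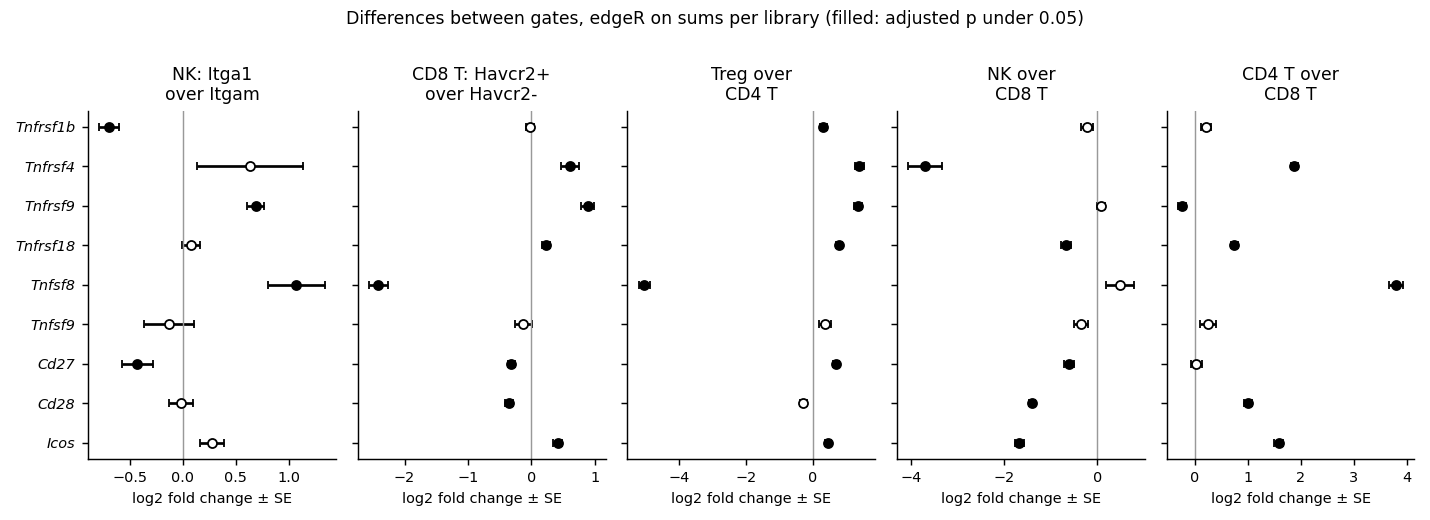
Fitted log2 fold changes ± SE of the 9 genes in the 5 comparisons, on 6 sums each, with filled points for an adjusted p under 0.05. Each panel has its own horizontal scale. *Tnfsf8* shows the largest change, at -5.04 in Treg against CD4 T cells, and *Tnfrsf9* crosses 0 between comparisons.

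OX40, 4-1BB and GITR transcripts were frequently found in the same cell. All 3 were seen in 89.9%, 89.4% and 95.7% of Treg cells and in 33.6%, 43.2% and 66.4% of CD4 T cells. In *Havcr2*+ CD8 T cells the shares were 60.9%, 58.0% and 74.3%, and in *Havcr2*- cells 19.6%, 31.6% and 49.8%. Because a deeper cell shows more genes, shares were also taken after thinning to 2000 UMIs. They were then 65.8%, 62.1% and 75.5% in Treg cells, 14.7%, 17.3% and 38.4% in CD4 T cells, 15.2%, 10.97% and 17.5% in *Havcr2*+ and 4.83%, 5.24% and 12.6% in *Havcr2*- CD8 T cells. Treg cells stayed above the other gates in every library on both scales, whereas *Havcr2*+ CD8 T cells lay above CD4 T cells before thinning and, after it, below them in KG+ replicate 2 and KR+. NK cells fell to under 1% in the *Itga1*+ gate (0.43%, 0.76% and 0.33%), and in B cells all 3 genes were seen in 0 of 180, 1 of 89 and 0 of 4 cells. With all UMIs, *Tnfrsf4* alone was seen in 95.6%, *Tnfrsf9* in 95.3% and *Tnfrsf18* in 98.2% of Treg cells on average. Whether the 3 coincide more often than their single shares give was not tested.

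**Figure D3:**
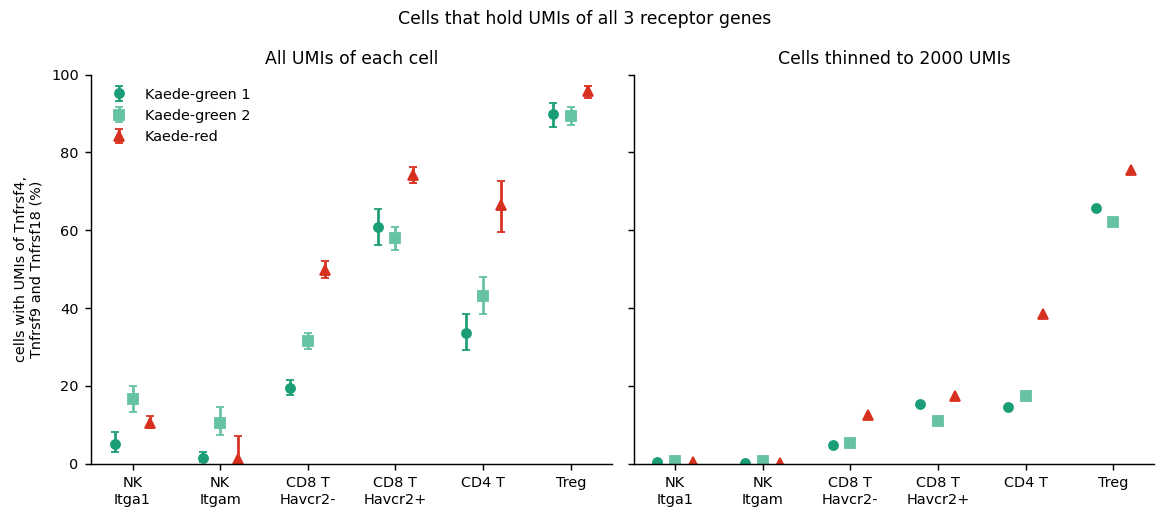
Share of cells (%) with UMIs of *Tnfrsf4*, *Tnfrsf9* and *Tnfrsf18* together, by gate and library, with all UMIs (exact 95% binomial intervals, counting error only) and after thinning to 2000 UMIs per cell. Treg cells have the highest share in each library, from 89.4% to 95.7% with all UMIs and from 62.1% to 75.5% after thinning.

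Over the 18 sums of 6 gates and 3 libraries, levels of *Tnfrsf4* and *Icos* had a Pearson r of 0.98, *Tnfrsf18* and *Icos* of 0.96 and *Tnfrsf4* and *Tnfrsf18* of 0.94, on log2(CPM + 1). These sums share libraries and gates, so the coefficients describe the pattern and carry no test. Among 5104 genes with a mean of at least 20 CPM, the 3 most like *Tnfrsf18* were *Sdf4* (0.986), *Tap2* (0.983) and *Tap1* (0.976). *Sdf4*, the neighbor upstream of *Tnfrsf4*, had means of 1554 in Treg cells, 953 in CD4 T cells, 536 and 407 in the *Havcr2*+ and *Havcr2*- CD8 T gates and 176 and 184 in the *Itga1*+ and *Itgam*+ NK gates. The nearest to *Tnfrsf4* were *Ifi27l2a* (0.977), *Icos* (0.976) and *Tap1* (0.972), and those to *Icos* were *Aebp2* (0.978), *Tap1* (0.978) and *Tnfrsf4* (0.976). *Cd28* was most like *Ube2l6* (0.987), *Gbp6* (0.980) and *Crbn* (0.977). *Tnfrsf9* was nearest to *Gnb2* (0.963), *2210016F16Rik* (0.958) and *Lgals1* (0.956). *Cd27* was nearest to *Zc3h12d* (0.946), *Mier1* (0.941) and *Sla* (0.939), and *Tnfrsf1b* to *Cast* (0.944), *Foxn3* (0.944) and *Pik3ca* (0.938). The ligands had lower best values, with *Nek7* (0.888), *Rnf19b* (0.879) and *Casp1* (0.850) for *Tnfsf8* and *Hivep1* (0.859), *Hmox2* (0.857) and *Frg1* (0.850) for *Tnfsf9*.

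The binding partners of the 9 genes were mostly scarce in these lymphocytes. CD30 (*Tnfrsf8*), the partner of *Tnfsf8*, had a mean of 16.4 ± 2.27 (SD, n = 3) in Treg cells and at most 2.57 in the other gates. OX40 ligand (*Tnfsf4*) was highest in *Itga1*+ NK cells, at 20.7, 20.02 and 39.1, and lowest in Treg cells, with a mean of 2.04. GITR ligand (*Tnfsf18*) had 3 UMIs in all 18 sums, and the 15 sums with 0 UMIs allow levels of up to between 0.0810 and 4.62. *Cd70*, the ligand of CD27, had means of 13.8 ± 6.92 in Treg cells and 12.8 ± 2.26 in CD4 T cells and no UMI in *Itgam*+ NK cells. *Tnf* was highest in CD4 T cells (37.6 ± 11.7), as was *Lta* (20.2 ± 11.1). Of the ligands of CD28, *Cd80* was highest in Treg (22.3 ± 6.18) and *Havcr2*+ CD8 T cells (18.8 ± 2.10), and *Cd86* had means of 22.6 to 30.5 in the T cell gates. ICOS ligand (*Icosl*) had means of 1.98 to 4.43 over the gates.

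**Figure D4:**
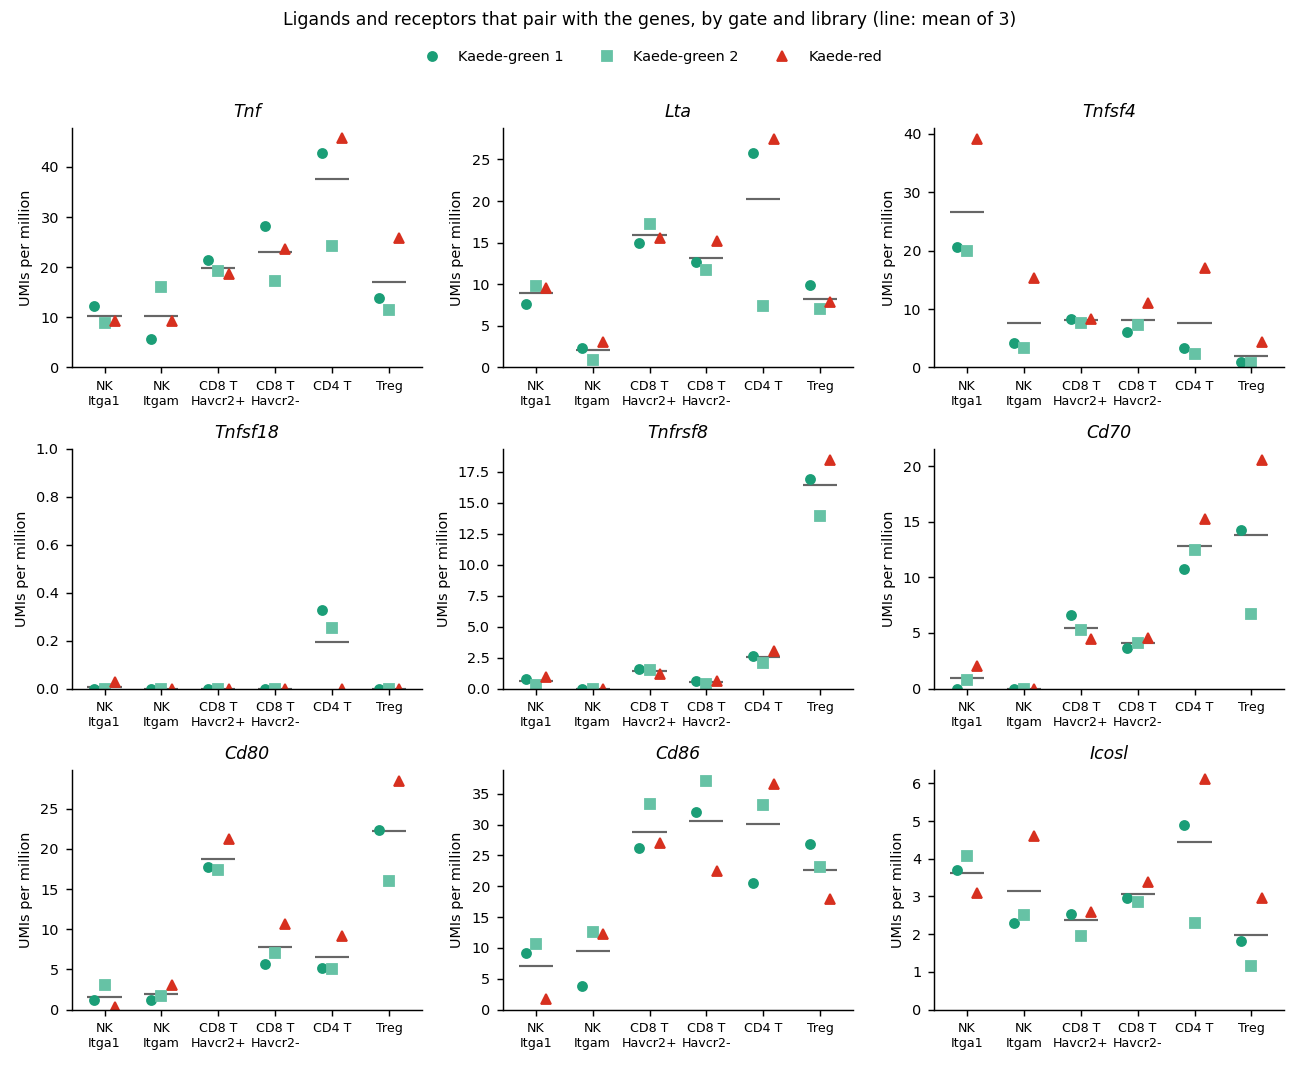
Levels of the partners of the 9 genes in CPM by gate, with 1 point per library in the color of its Kaede fraction. CD30 (*Tnfrsf8*) is highest in Treg cells, OX40 ligand (*Tnfsf4*) in *Itga1*+ NK cells, and GITR ligand (*Tnfsf18*) is at or near 0 in every gate.

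Kaede color was compared within gates. With 1 KR+ library the difference has no replicate check and no test, so a gene was named as higher or lower in KR+ cells when its ratio to the mean of the KG+ libraries was at least 1.5-fold and its ratios to both had 1 sign and exceeded the ratio between them, among genes with at least 30 UMIs in a gate. Of 54 pairs of a member and a gate, 6 were higher and 3 lower by this rule. CD4 T cells held 3 of the higher pairs, where 7.27% of 9350 genes were higher and 5.8% lower. *Tnfrsf9* went from 346 and 393 in KG+ to 758 in KR+ CD4 T cells (log2 ratio to the KG+ mean 1.04). *Tnfrsf4* went from 644 and 679.9 to 1209 (0.87) and *Tnfrsf18* from 611 and 568 to 947 (0.68). Cells with *Ikzf2* or *Ikzf4* made up 54.0% of the CD4 T gate in KR+ against 40.3% and 51.6% in KG+. Among cells without these genes the ratios of *Tnfrsf4* and *Tnfrsf18* were 0.56 and 0.42, below the rule, while *Tnfrsf9* stayed past it. With cells of 2 gates kept, the ratios of *Tnfrsf4* and *Tnfrsf18* were 0.41 and 0.36, also below the rule.

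In *Havcr2*- CD8 T cells 2 genes were higher in KR+, with a background of 5.92% higher and 7.06% lower. *Tnfrsf4* was 131 and 146 in KG+ and 251 in KR+ (0.86), and *Tnfrsf9* was 296 and 347 against 533 (0.73). Both stayed past the rule in all 8 alternatives, as did *Tnfrsf9* in CD4 T cells. The alternative that drops CD4 T cells with *Ikzf2* or *Ikzf4* leaves CD8 T and Treg gates unchanged, so it is no check on them. In *Havcr2*+ CD8 T cells, where 2.94% of genes were higher and 5.6% lower, *Tnfsf9* was lower in KR+ (17.1 and 14.7 against 9.99, -0.67). It was below the rule in UMIs per cell (-0.36) and with cells of 2 gates kept (-0.56). *Tnfrsf4* and *Tnfrsf9* were not past the rule in this gate. In Treg cells, with 4.27% higher and 3.6% lower, *Icos* was higher (984 and 983 against 1495, 0.60), but it was past the rule in 2 of 8 alternatives, which ranged from 0.23 to 0.69. The 2 were the stricter gates and the alternative that leaves Treg cells unchanged. *Tnfrsf4*, *Tnfrsf9* and *Tnfrsf18* of Treg cells were not past the rule, and their levels by color are those given above.

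Among *Itga1*+ NK cells, with 3.24% of genes higher in KR+ and 10.6% lower, *Cd27* was lower in KR+ (114 and 99.3 against 57.6, -0.89). KR+ cells of this gate had more UMIs per cell, and *Cd27* UMIs per cell were 1.47, 1.54 and 1.46. The level of *Cd27* relative to all RNA was thus lower while its UMIs per cell differed by -0.04 on the log2 scale. Among cells of 5000 to 15000 UMIs the ratio of *Cd27* in CPM was -0.41, below the rule. *Tnfrsf9* UMIs per cell in the same gate were 6.78, 7.82 and 16.8, while its log2 ratio in CPM was 0.36, not past the rule. In *Itgam*+ NK cells, with 6.33% higher and 14.6% lower, *Tnfrsf1b* was lower in KR+ (169 and 149 against 102, -0.64), on 76 KR+ cells, and by -0.33 in UMIs per cell, which is not past the rule.

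**Figure D5:**
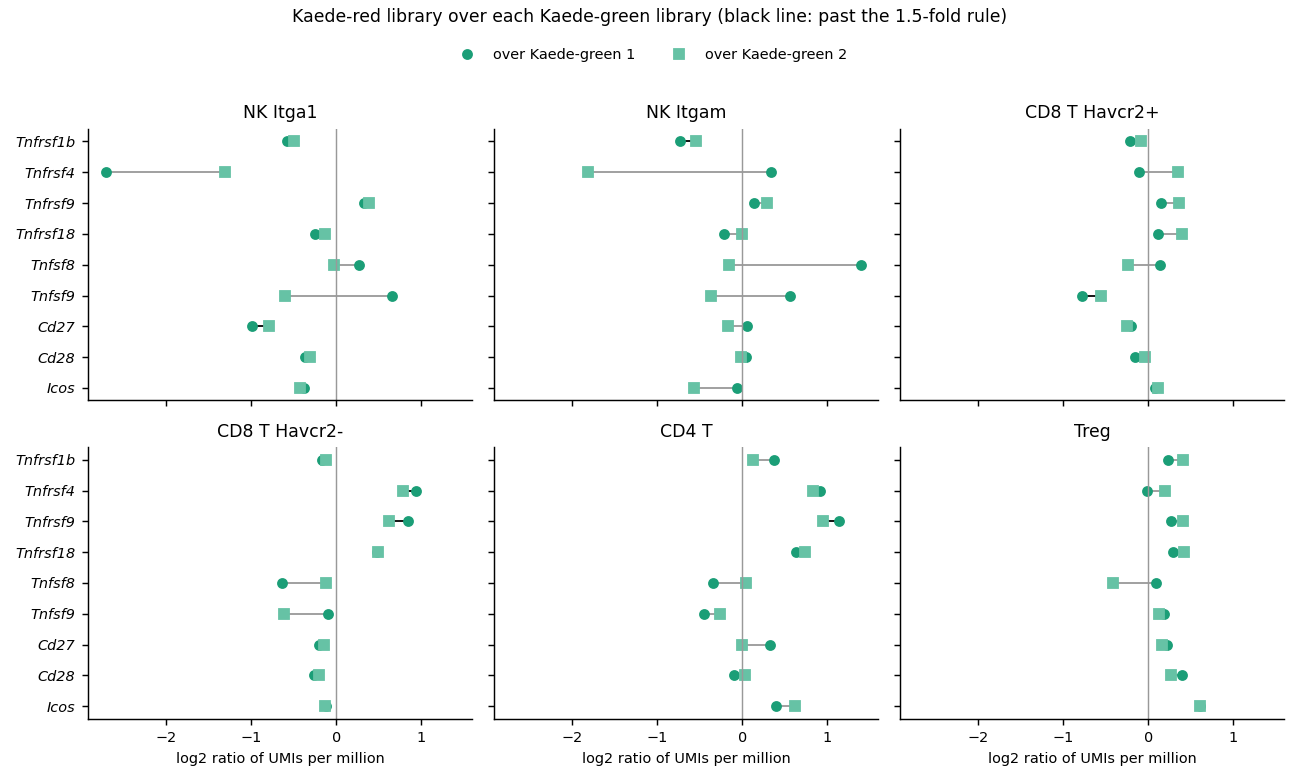
Log2 ratio of KR+ to each KG+ library for the 9 genes in the 6 gates, from CPM, with a black line at the pairs past the 1.5-fold rule. *Tnfrsf4*, *Tnfrsf9* and *Tnfrsf18* are past it in CD4 T cells, the first 2 of them also in *Havcr2*- CD8 T cells. *Cd27* is past it, lower in KR+, in *Itga1*+ NK cells, but not among cells of 5000 to 15000 UMIs or in UMIs per cell.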

How the data were processed

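The authors sorted live CD45+ Ter119- Kaede+ cells without CD11b+ NK1.1- cells, made 10x Genomics 3′ libraries and deposited filtered matrices of UMI counts per gene and cell, not normalized, counted on mm10 with Cell Ranger (6.1.2 in the submitters' processing notes, 6.0.1 in the file headers). The libraries held 10498, 12327 and 11956 barcodes with 87193225, 129438292 and 175848894 UMIs, and shared 20, 28 and 36 barcodes in pairs. No column was left without a sample.

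The deposited counts were used as given. Barcodes outside 1000 to 6000 detected genes, or with 7.5% or more of their UMIs from mitochondrial genes, were dropped, leaving 10000, 11078 and 10865 cells. Doublets were handled by leaving out cells that met gates of 2 classes. No doublet caller was run. Counts were summed per library and gate, and 2 gates were compared over 6 sums with edgeR 4.0.16 (R 4.3.3; TMM factors, filterByExpr, quasi-likelihood test, Benjamini-Hochberg threshold 0.05), after the procedure had been tested on simulated data. Gating genes were left out. Both gates of a pair come from the same library, so the library is a block. The KG+ replicates are labeled as biological, but the p-values measure only how the difference between 2 gates varied over these 3 libraries. Differences between libraries that both gates share are taken out by the block. A sum is weighted toward its deepest cells. Color ratios had 0.5 added to each count. Thinning is an expected value without random draws. Exact binomial intervals and limits of 0 (3 counts) cover counting error only. Positions are from GENCODE (99.6% of genes matched) and sequences from RefSeq, which gave start sites for 6 of the 9 genes.

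The members, gene lists and tests were chosen with earlier results of these data known. Named were the 9 members, their binding partners, the 3 genes most like each and, in each comparison, the 3 genes of 5 pathway lists with the largest called change in each direction. *Cd27* and *Icos* overlap a gene of the same strand on the annotation (*Mir8113* and *Gm37039*), and counts near shared ends may be split. *Tnfrsf9*, *Tnfrsf18* and *Tnfsf9* overlap only genes of the opposite strand. Alternatives were DESeq2 1.42.0, other scaling, no filter on genes or cells, no library block, 1 fit of all gates, stricter gates, cells of 5000 to 15000 UMIs, the top 5% of UMIs left out, each library left out and, chosen after seeing the data, CD4 T cells without *Ikzf2* or *Ikzf4* and UMIs per cell.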

Additional observations from a re-analysis of the deposited data

Results flagged for a closer look

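Of the 9 genes, 5 were past the 1.5-fold rule for Kaede color in at least 1 gate on the CPM scale and moved the opposite way in another gate, where the KR+ library also lay beyond both KG+ libraries. The share of all genes that meet this double rule was not taken, so the count of 5 is not read as particular to these genes. The differences between gates were not tested, since there is 1 KR+ library. The log2 ratios of KR+ to the KG+ mean were -0.64 in *Itgam*+ NK cells and 0.31 in Treg cells for *Tnfrsf1b*, -0.89 in *Itga1*+ NK cells and 0.19 in Treg cells for *Cd27*, and -0.67 in *Havcr2*+ CD8 T cells and 0.15 in Treg cells for *Tnfsf9*. For *Tnfrsf18* they were 0.68 in CD4 T cells and -0.19 in *Itga1*+ NK cells, and for *Icos* 0.60 in Treg cells and -0.40 in *Itga1*+ NK cells. Median UMIs per cell went from 9493 and 12075 in KG+ to 24478 in KR+ *Itga1*+ NK cells and from 12563 and 12429 to 17532.5 in *Havcr2*+ CD8 T cells. They went from 9577.5 and 10098 down to 7139 in Treg cells. In *Itgam*+ NK cells (5345 and 6717 against 6701) and CD4 T cells (5889.5 and 7008 against 5974) KR+ lay between the KG+ libraries. The part of depth was not tested. In UMIs per cell none of the 5 genes had ratios of opposite sign. These were -0.33 and -0.06 for *Tnfrsf1b*, -0.04 and -0.18 for *Cd27*, -0.36 and -0.22 for *Tnfsf9*, 0.63 and 0.66 for *Tnfrsf18*, and 0.23 and 0.44 for *Icos*, in the same order of gates.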

How the results depend on the processing

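Over 603 values of a member under an alternative, 518 kept their direction and their side of the threshold, 47 lost a call, 13 gained one and 25 changed sign. None of the 25 had been called. Between NK gates, *Cd28* became 0.034 with no low-count filter, 0.094 with stricter gates, 0.070 without the top 5% of UMIs and 0.088 at 5000 to 15000 UMIs, and ranged from -0.10 to 0.067 with each library left out. *Tnfrsf4* became -0.45 without the top 5% and -0.058 in that window, with a range of -0.64 to 2.30, and *Tnfsf9* 0.050 in the window and 0.050 in 1 fit of all gates. Between CD8 T gates, *Tnfrsf1b* became 0.097 without the top 5% and 0.16 in the window, with a range of -0.039 to 0.0077, and *Tnfsf9* 0.12 and 0.42, with a range of -0.30 to 0.024. In CD4 against CD8 T cells, *Cd27* became -0.059 with no filter, -0.072 with cells of 2 gates kept, -0.024 with stricter gates, -0.026 without the top 5%, -0.082 in the window and -0.56 without *Ikzf2* or *Ikzf4*, with a range of -0.084 to 0.18, and *Tnfrsf1b* became -0.051 without *Ikzf2* or *Ikzf4*.

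Without the library block, which pairs gates of the same library, the genes called went from 3395 to 2359 (NK gates), 3390 to 134 (CD8 T gates), 2910 to 2115 (Treg), 3802 to 1674 (NK against CD8 T) and 3492 to 1569 (CD4 against CD8 T), and the members called between CD8 T gates from 7 to 1. DESeq2 called 2072, 2045 and 1465 genes in the first 3 comparisons. The window called 841, 1882, 1652 and 1692 (NK gates, CD8 T gates, Treg, CD4 against CD8 T), with fewer cells, and 2 members between NK gates. Leaving out the top 5% gave 1778 (NK gates) and 1998 (CD4 against CD8 T), 1 fit gave 1980 genes and 3 members between CD8 T gates, and keeping cells of 2 gates gave 1066 (Treg). Leaving out each library gave 1656 to 3735, 1634 to 3274, 1417 to 3416, 2228 to 5204 and 2180 to 2812 genes, and 4 to 7 members between CD8 T gates, each lowest without KG+ replicate 2, and 2203 genes in CD4 against CD8 T cells without KG+ replicate 1. The cause of these changes was not tested. Pairs past the color rule numbered 9, and 6 to 10 under alternatives, but the pairs themselves changed. In UMIs per cell, 9 pairs were also past it. Those of *Cd27* in *Itga1*+ NK, *Tnfrsf1b* in *Itgam*+ NK, *Tnfsf9* in *Havcr2*+ CD8 T and *Icos* in Treg cells were lost. Newly higher in KR+ were *Tnfsf8* (0.938), *Tnfrsf9* (1.205) and *Tnfrsf18* (0.658) in *Itga1*+ NK cells and *Tnfrsf18* (0.784) in *Havcr2*- CD8 T cells. This scale is not adjusted for depth. Median UMIs per cell were 24478 in KR+ *Itga1*+ NK cells, against 9493 and 12075 in KG+. In CPM the same ratios were 0.11, 0.36, -0.19 and 0.49, none past the rule. The share of all genes past the rule in UMIs per cell was not taken. Among CD4 T cells without *Ikzf2* or *Ikzf4*, *Cd27* was newly lower (-0.844). With 1 KR+ library, color has no spread of its own. The number of molecules behind a level depends on the size of the sum. *Tnfsf8* at 3.02 CPM in KR+ *Havcr2*+ CD8 T cells came from 112 UMIs, and at 10.8 CPM in KR+ *Itgam*+ NK cells from 7 UMIs.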

Other observations

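The binding partners of the 9 genes gave 41 pairs of a partner and a gate with at least 30 UMIs, of which 7 were higher and 3 lower in KR+ cells by the same 1.5-fold rule. Over all genes, by gate, 2.94% to 7.27% were higher and 3.6% to 14.6% lower. OX40 ligand (*Tnfsf4*) accounted for 4 of the 7, with log2 ratios of KR+ to the KG+ mean of 0.94 in *Itga1*+ NK cells, 0.74 in *Havcr2*- CD8 T cells, 2.57 in CD4 T cells and 2.22 in Treg cells. In *Havcr2*+ CD8 T cells its ratio was 0.03, and *Itgam*+ NK cells had 29 UMIs in all. The T cell sums are small, with 47 UMIs of *Tnfsf4* in CD4 T cells and 43 in Treg cells over the 3 libraries. *Cd80* was higher in KR+ *Havcr2*- CD8 T cells (0.75) and CD4 T cells (0.83) and lower in KR+ *Itga1*+ NK cells (-2.68). It rested on only 16, 20 and 15 UMIs in CD4 T cells and 5, 23 and 13 UMIs in *Itga1*+ NK cells. *Cd86* was lower in KR+ *Itga1*+ NK cells (-2.57) and *Havcr2*- CD8 T cells (-0.61), and *Tnf* was higher in KR+ Treg cells (1.03). Both B7 genes were high in the myeloid gate, with *Cd86* at 309, 239.6 and 319 CPM and *Cd80* at 69.4, 37.1 and 59.2 CPM, and in *Itga1*+ NK cells the myeloid genes *Lyz2* (9.37 and 18.04 against 0.36 CPM) and *C1qa* (2.47 and 4.35 against 0.21 CPM) were also lower in KR+. Their part in the *Cd80* and *Cd86* ratios was not tested. Over the 5 lists of other pathway genes, 379 pairs had enough UMIs, with 20 higher and 63 lower, to be read against the same shares of all genes.

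Among CD4 T cells without *Ikzf2* or *Ikzf4*, means over the 3 libraries were 218 ± 48.8 CPM for *Tnfsf8*, 491 ± 118 for *Tnfrsf4*, 238 ± 111 for *Tnfrsf9* and 491 ± 97.7 for *Tnfrsf18* (SD, n = 3). They were 120.2 ± 8.52 for *Tnfrsf1b*, 17.9 ± 3.93 for *Tnfsf9*, 121 ± 37.9 for *Cd27*, 369 ± 18.1 for *Cd28* and 709.7 ± 149 for *Icos*. *Tnfrsf4*, *Tnfrsf9* and *Tnfrsf18* stood lower than in the whole CD4 T gate, and *Tnfsf8* higher. The cells without *Ikzf2* or *Ikzf4* are part of that gate.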
